A study of Mus musculus with 30 samples.

Results

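The genes described here encode the proteins of the primary (azurophil) granules of neutrophils or mark the precursors that make those granules. They are Mpo, Elane, Prtn3, Ctsg, Ms4a3 and Fcnb, 6 of the 43346 gene IDs in the counts table, chosen by name, and all 6 were found in it. RNA was sequenced from 30 libraries of mouse cells that lacked GFP, called stromal cells by the submitters and sorted from bone, lung or brain. In the exposed groups, female NSG mice, aged 6 to 8 weeks and carrying slow release estrogen pills, had received 100000 human breast circulating tumour cells (CTCs), marked with GFP and luciferase, through the left ventricle of the heart. The CTC lines were Brx07, Brx42, Brx50 and Brx68, each derived from a patient, and RNA was taken from 50000 sorted cells. NSG mice lack B, T and natural killer cells but keep granulocytes and monocytes.

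Bone held 2 libraries exposed to Brx07, 4 to Brx50 and 7 to Brx68, with 3 from tumour-free controls. Lung held 2 exposed to Brx07, 1 to Brx42, 3 to Brx50 and 1 to Brx68, with 2 controls. Brain held 3 exposed to Brx50 and 2 controls. Whether control mice carried estrogen pills was not given in the sources used here. It was likewise not stated that each library came from its own mouse, so every p-value reflects variation from library to library, some of it possibly technical. The sort kept every cell without GFP, so blood and marrow cells of the host could enter any library.

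Neutrophils build their granules in a fixed order in the bone marrow. The primary granule proteins are transcribed at the promyelocyte stage and are switched off before the secondary granule proteins, such as lactoferrin, are made, and a circulating neutrophil carries the finished proteins but little of their mRNA. Transcripts of the primary granule genes therefore mark marrow precursors more than mature cells. Mpo encodes myeloperoxidase, the haem enzyme that makes hypochlorous acid. Elane, Prtn3 and Ctsg encode the serine proteases neutrophil elastase, proteinase 3 and cathepsin G. Ms4a3 encodes a membrane protein of granulocyte and monocyte progenitors, and Fcnb encodes ficolin B, a lectin of the complement system made by myeloid precursors.

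Prtn3 and Elane lie next to each other on chromosome 10 of GRCm38, at 79874476 to 79883174 and 79886247 to 79888215, both on the plus strand, with Elane starting 3073 bases past the end of Prtn3. Mpo spans 87793581 to 87804413 on chromosome 11 (plus strand), and Ctsg spans 56099881 to 56102574 on chromosome 14 (minus strand). Ms4a3 lies on chromosome 19 from 11629496 to 11640851, and Fcnb on chromosome 2 from 28076378 to 28084885, both on the minus strand. The promoters are shown because genes on 5 chromosomes varied together across the libraries, as described below. In the 250 bases before the RefSeq start, the 6 letters GGAAGT, the core bound by ETS family factors such as PU.1, stood on the gene's own strand in all 6 genes, and in 3500 of all 32851 such windows of the genome (10.7%, or 19.7% on either strand). The stretch around each match, from RefSeq on GRCm38.p6, is given 5′ to 3′ on the gene's strand with the match in capitals.
Mpo, chr11:87793550-87793579, plus strand: tggagagagagaGGAAGTtgcctttgtccc
Elane, chr10:79886217-79886246, plus strand: gtgtcccagggaGGAAGTagggctgtggcc
Prtn3, chr10:79879562-79879591, plus strand: aaactggaaggaGGAAGTgggacccacagc
Ctsg, chr14:56102762-56102791, minus strand: agaggaagaaaaGGAAGTagtcacctgttt
Ms4a3, chr19:11640889-11640918, minus strand: tggtatacttggGGAAGTgggtgggccatt
Fcnb, chr2:28085048-28085077, minus strand: tgcctctgcaggGGAAGTgaacctccaaag
Fcnb, chr2:28084963-28084992, minus strand: cagaggcctccaGGAAGTgactatctcctg

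Counted back from the RefSeq start, the matches began at 55 bases in Ms4a3, 83 in Elane and 93 in Prtn3. They began at 102 and 187 in Fcnb, 205 in Ctsg and 222 in Mpo. The gene spans above are from GENCODE. RefSeq starts lie inside them in Mpo (87793784), Elane (79886312), Prtn3 (79879667) and Fcnb (28084878). The Prtn3 match thus falls within the Prtn3 span given above, and the Mpo match just before the Mpo span. The motif was chosen after the sequences had been seen. For comparison, it stood on the gene strand in 1 of the 6 secondary granule genes with a window. It also stood there in 2 of 9 other azurophil granule and early precursor genes and 3 of 11 paralogs and chromosomal neighbours. Among monocyte and macrophage genes it stood in 2 of 3, and among granulocyte transcription factors in 0 of 6. The TATA box letters TATAAG began 31 bases before the start in Elane, 32 in Prtn3 and 37 in Fcnb (4.01% of all windows on the gene strand and 6.65% on either). AACGG, the core of a MYB site, was found on the gene strand in Elane and Prtn3, 50 and 55 bases before the start (7.74% of windows on the gene strand, 14.5% on either). In both genes the TATAAG and AACGG letters lie inside the gene spans given above. TTGCNNAA, a C/EBP site, was found in Fcnb alone, with 2 matches on the other strand (9.56% of windows on either strand). The searched motifs do not overlap one another in these windows. A match describes the letters only, since binding was not measured.

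Library totals ran from 4289012 to 15646947 counts, so 3 counts, the most that a count of 0 allows, were worth 0.192 to 0.699 CPM, the count scaled to a library total of 1000000. Intervals and limits of this kind cover counting error only. Bone controls had 22875 to 22917 genes detected and exposed bone libraries 14769 to 25688, with the fewest in Brx68 replicate 1, then Brx68 replicate 6. The exposed brain library with the fewest was replicate 1, at 16344. Lung epithelial genes (4 genes: Sftpc, Sftpb, Ager, Scgb1a1) summed to 128 to 4363 CPM in lung and to at most 6.06 elsewhere. Brain cell genes (4 genes) summed to at least 3098 CPM in brain and to 3.40 to 276 in exposed bone, highest in Brx07 bone replicate 2.

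**Figure D1:**
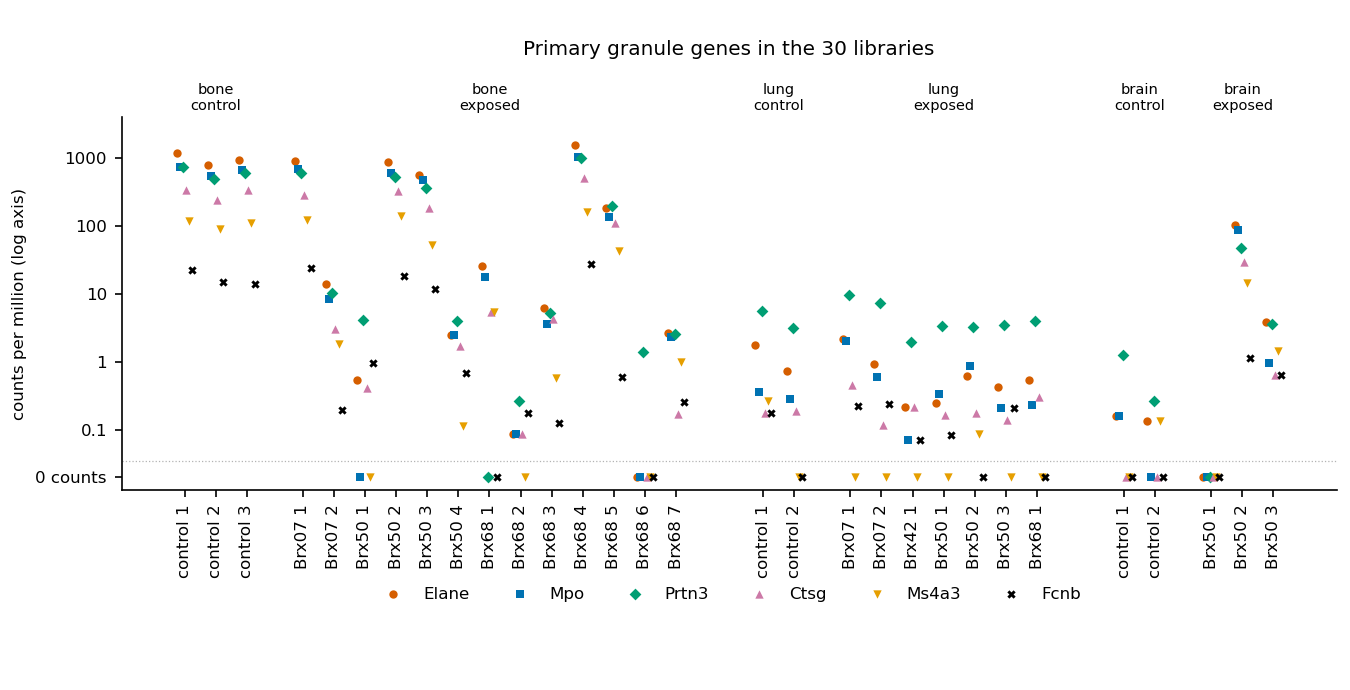
CPM of the 6 genes (log axis) in each of the 30 libraries, ordered by tissue and exposure; values of 0 sit below the dotted line. The 3 bone controls carry Elane at 784 to 1174 CPM, the 13 exposed bone libraries spread from 0 to 1563 CPM, and brain Brx50 replicate 2 (105 CPM) is the highest library outside bone.

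Elane had the highest level per length in tumour-free bone and Fcnb the lowest. Elane stood at 1174, 784 and 949 CPM in bone control replicates 1, 2 and 3, and Mpo at 745, 545 and 679. Prtn3 stood at 740.4, 488 and 602 CPM, and Ctsg at 341, 246 and 338. Ms4a3 stood at 119, 90.1 and 111 CPM and Fcnb at 22.5, 14.8 and 14.2. Replicate 1 was the highest and replicate 2 the lowest for 5 genes, the exception being Fcnb, lowest in replicate 3. Divided by exonic length, the order was Elane (985 ± 199 CPM per kb, SD, n = 3), Prtn3 (352 ± 73.1), Ctsg (298 ± 52.5), Mpo (192 ± 29.8), Ms4a3 (56.6 ± 7.90) and Fcnb (12.8 ± 3.46). The ranges of Prtn3 (281 to 427) and Ctsg (238 to 331) overlapped, while each of the other neighbours in this order was separated in all 3 libraries. The plot of levels per length shows this order with the 3 libraries as points.

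**Figure D2:**
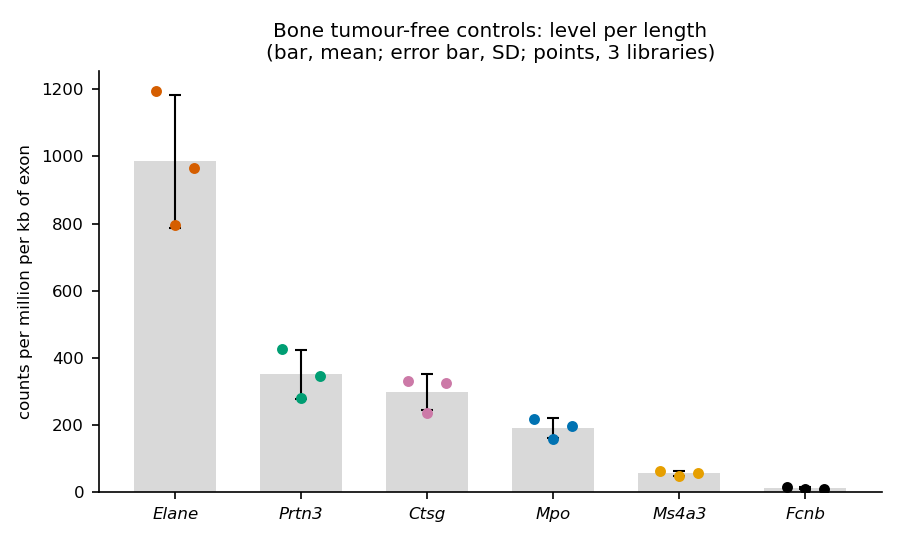
CPM per kb of exon for the 6 genes in the 3 tumour-free bone libraries (bars, mean; error bars, SD; points, libraries). Elane, at 985, stands above Prtn3 at 352, and the points of Prtn3 and Ctsg overlap.

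In tumour-free lung and brain the 6 genes were at or near 0. Mpo, as an example, had 4 and 3 counts in the lung controls (0.358 and 0.279 CPM) and 1 and 0 in the brain controls. Elane had 20 and 8 counts in lung and 1 and 1 in brain. Ctsg had 2 and 2 counts in lung and none in brain, Ms4a3 had 3 and 0 in lung and 0 and 1 in brain, and Fcnb had 2 and 0 in lung and none in brain. Prtn3 was the highest of the 6 in both, with 62 and 34 counts in lung (5.56 and 3.16 CPM) and 8 and 2 in brain. The annotated span of Prtn3 overlaps that of Plppr3, on the other strand, from 79874476 to 79874634, with shared exon bases, and Plppr3 stood at 20.8 to 23.4 CPM in lung controls and 25.2 to 26.9 in brain controls; the counting is not stated to use strand, and how far these reads belong to Prtn3 was not tested. Brain Brx50 replicate 1 had 125 Plppr3 counts and bone Brx68 replicate 1 had 112, each with 0 Prtn3 counts. All other libraries had counts of both genes. Mpo shares exon bases with Gm11505, which had 0 counts in every library.

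Each of the 6 genes was higher in all 3 bone controls than in any lung or brain control (33.5% and 37.8% of the 18859 genes tested were separated in that direction). By edgeR's two-sided quasi-likelihood test all 6 passed the threshold, an adjusted p of 0.05, against lung (22.5% of genes passed in that direction) and against brain (37%). The low count filter admitted them through their level in bone, so these counts describe the genes and say nothing of how particular they are. Both comparisons share the bone controls. Pooled over libraries, Mpo had 22795 counts in bone controls and 7 in lung controls, a ratio of 2073 in CPM (95% exact counting interval 1006 to 5157). The ratio to lung was 770 for Elane (532 to 1158) and 141 for Prtn3 (116 to 174). Ctsg and Fcnb, without a count in the brain controls, were at least 1427-fold and at least 80.3-fold higher in bone, taking 3 counts over the 2 brain libraries as the limit. The fitted log2 difference of Mpo between bone and lung was 10.92 (SE 0.29, edgeR adjusted p = 2.43e-10) and that of Fcnb 7.35 (SE 0.54, adjusted p = 8.64e-07).

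Tumour-free lung was not without neutrophil transcripts. S100a9, abundant in mature neutrophils, stood at 558 and 537 CPM in the lung controls and Cxcr2, the chemokine receptor of mature neutrophils, at 101 and 109 CPM. In bone controls S100a9 stood at 7889 to 10708 CPM and Cxcr2 at 156 to 194. The log2 difference between bone and lung was 4.09 for S100a9 (SE 0.22) and 10.40 for the secondary granule gene Camp (SE 0.25), both past the threshold in edgeR (adjusted p = 2.64e-08 and 8.06e-11). Median differences were 9.49 over the 6 primary granule genes, 6.82 over 6 secondary granule genes (Ltf, Camp, Ngp, Lcn2, Mmp8, Cd177) and 3.19 over 7 genes of tertiary granules and mature neutrophils (Mmp9, S100a8, S100a9, Retnlg, Cxcr2, Fpr1, Mmp25), against 0.00 over all genes tested. These differences between lists were not tested. In this bulk RNA, fewer cells of a type and less RNA per cell cannot be told apart.

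In exposed bone the 6 genes ranged from levels like those of the controls to 0, and the libraries differed among themselves far more than the controls did. Elane stood at 920 and 13.9 CPM in Brx07 replicates 1 and 2, at 0.547, 874, 574 and 2.51 CPM in Brx50 replicates 1 to 4, and ranged from 0 through a median of 6.20 to 1563 CPM in the 7 Brx68 libraries. High values were in Brx07 replicate 1, Brx50 replicates 2 and 3 and Brx68 replicate 4, and the control range (784 to 1174) lay inside the exposed range. Mpo followed the same libraries, at 689 and 8.41 CPM with Brx07, at 0, 599, 469.5 and 2.51 with Brx50, and from 0 through 3.58 to 1051 with Brx68.

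Prtn3 stood at 604 and 10.4 CPM with Brx07, at 4.10, 520.3, 367 and 4.00 with Brx50, and from 0 through 2.61 to 1015 with Brx68. Ctsg stood at 291 and 3.03 CPM with Brx07, at 0.410, 328, 185 and 1.71 with Brx50, and from 0 through 4.22 to 510.3 with Brx68. Ms4a3 stood at 122 and 1.86 CPM with Brx07, at 0, 142, 51.8 and 0.114 with Brx50, and from 0 through 1.01 to 162 with Brx68. All 3 genes had their high and low values in the libraries named for Elane. Fcnb, the least abundant of the 6, stood at 24.5 and 0.196 CPM with Brx07, at 0.958, 18.6, 12.02 and 0.685 with Brx50, and from 0 through 0.176 to 28.0 with Brx68.

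The summed CPM of the 6 genes, as a share of the mean of the bone controls, put these libraries on one scale. The controls lay at 118%, 81.3% and 101%. Brx07 replicates 1 and 2 lay at 99.3% and 1.42%, and Brx50 replicates 1 to 4 at 0.226%, 93.1%, 62.2% and 0.433%. Brx68 replicates 1 to 7 lay at 2.05%, 0.0264%, 0.75%, 162%, 25.4%, 0.0531% and 0.341%. Of the 13 exposed libraries, 10 were below the lowest control, 2 within the control range and 1 above the highest control, and 8 were under 5% of the control mean. No library lay between 2.05% and 25.4%.

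The pair of Brx07 libraries spans this range and is the one pair whose bone is named in the labels. The library from leg bone (replicate 1) had 26462 counts over the 6 genes and the library from skull (replicate 2) had 386, at totals of 9987514 and 10226716 counts. Both titles carry the same code. With 1 library per site no test of the site can be made, and which bone the other exposed libraries and the controls came from was not given in the sources used here. Bone site and exposure cannot be told apart in these libraries.

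The difference between exposed and control bone was not called for any of the 6 genes. Elane averaged 321 ± 507 CPM (SD, n = 13) against 969 ± 196 (n = 3), a fitted log2 difference of -1.60 (SE 1.75, edgeR adjusted p = 0.970). The 6 fitted differences ran from -1.37 (Fcnb, SE 1.45) to -1.60, all with the same adjusted p, and their median was -1.503 against 0.08 over the 18278 genes tested. In this comparison edgeR called 0 genes (0%), with 458 at an unadjusted p under 0.05 (2.51%), none of them among the 6. DESeq2 called 17 of 29931 genes (0.0568%), again none of the 6. Between these groups the values of all 6 genes overlapped (0.235% of genes did not). Leaving out each library in turn moved the fitted differences between -2.17 and -1.14, with adjusted p from 0.804 to 1.

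One alternative gave another answer. limma-voom with quality weights, which gives each library a weight from how far it departs from the fit, called 2844 genes (15.6%), 2194 of them lower in exposed bone (12%), and all 6 genes were among the lower ones. Its log2 differences ran from -4.00 (Fcnb, SE 0.77) to -5.90 (Mpo, SE 1.25), with limma adjusted p of 0.00702 to 0.00779. limma-voom averages log2 values, while edgeR models mean counts, to which the few high libraries add most. The differences from both fits are thus not the same quantity, and how much the weights add was not tested. The weights were 4.27, 8.10 and 9.49 for the controls and 0.185 to 1.17 for the exposed libraries. Among the exposed libraries the highest weight was that of Brx50 replicate 3 (1.17), with 62.2% of the control sum, and the lowest that of Brx68 replicate 1 (0.185), with 2.05%. The plot of fitted differences sets both fits side by side.

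**Figure D3:**
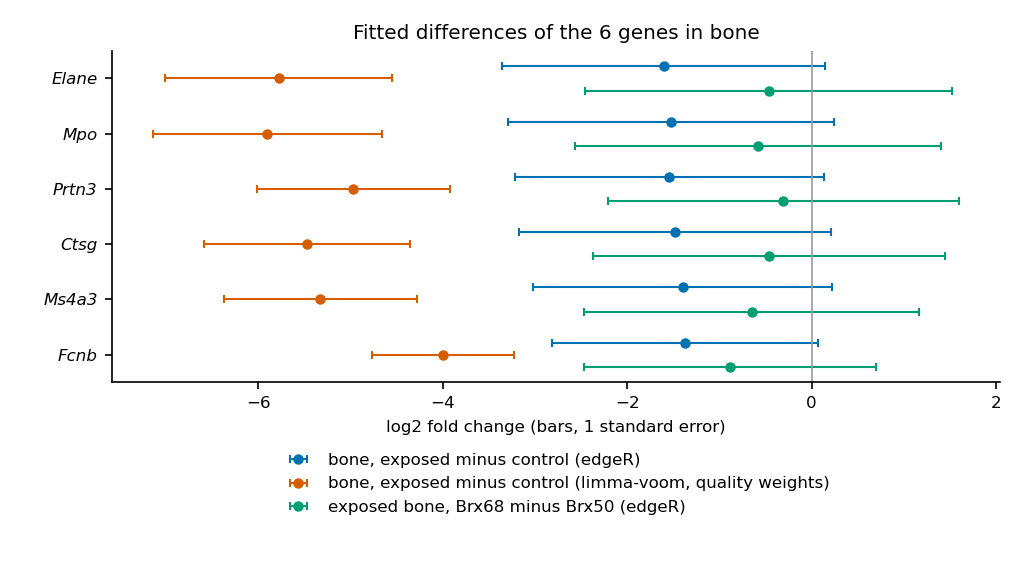
Fitted log2 differences of the 6 genes in bone with 1 standard error: exposed minus control by edgeR and by limma-voom with quality weights, and Brx68 minus Brx50 by edgeR. The edgeR values for exposure lie between -1.60 and -1.37 and the limma-voom values between -5.90 and -4.00.

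In most libraries where the 6 genes were abundant they stood in similar proportions. In the 3 bone controls Elane made up 35.3% to 37.4% of the 6-gene CPM sum, Mpo 23.7% to 25.2%, Prtn3 22.3% to 23.6%, Ctsg 10.9% to 12.5%, Ms4a3 3.78% to 4.16% and Fcnb 0.5261% to 0.715%. In Brx68 replicate 4, with 162% of the control sum, these shares were 36.1%, 24.3%, 23.4%, 11.8%, 3.74% and 0.646%. Brx07 replicate 2 (skull), at 1.42% of the control sum, still had 36.8% Elane, 22.3% Mpo, 27.5% Prtn3 and 8.03% Ctsg. Across the 30 libraries, pairwise correlations of log2(CPM + 1) among the 6 genes ran from 0.912 to 0.997 (Pearson, 15 pairs, median 0.944). Within the 13 exposed bone libraries they ran from 0.860 to 0.998. The points share library and depth and fall into high and low libraries, so these values describe the set and carry no test.

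**Figure D4:**
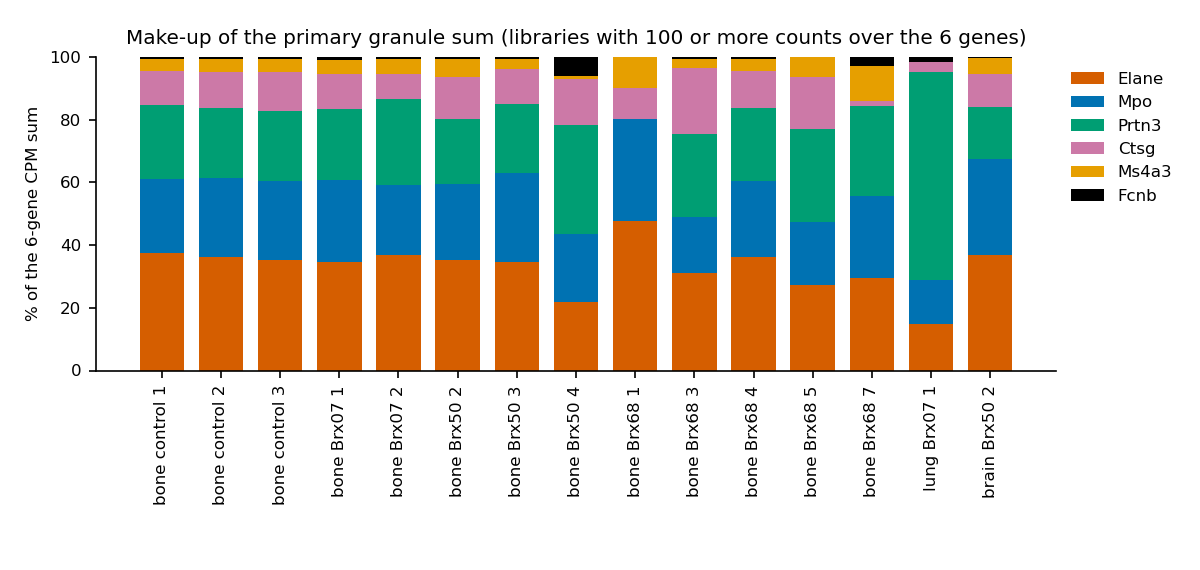
Share of each gene in the 6-gene CPM sum, in libraries with at least 100 counts over the 6 genes (stacked bars from 0 to 100%). Elane makes up 35.3% to 37.4% in bone controls, Prtn3 is missing in bone Brx68 replicate 1, and Prtn3 makes up 66.4% in lung Brx07 replicate 1.

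Some libraries departed from these proportions beyond counting error. In Brx68 replicate 1, Prtn3 had 0 counts beside 200 for Elane, which allows Prtn3 up to 1.83% of the counts of both genes (95% exact interval), while in controls Prtn3 made up 38.3% to 38.8%. Fcnb was at 0 there too, beside 136 counts for Mpo, and this library had the fewest genes detected. In Brx68 replicate 5, Fcnb had 6 counts beside 1360 for Mpo, 0.439% of both (interval 0.161 to 0.954), against 2.04% to 2.93% in controls. Prtn3 in that library had 1989 counts and Elane 1830, so Prtn3 made up 52.1% of both (interval 50.5 to 53.7). The same library had erythroid transcripts at 3686 CPM over 5 genes, against 162 to 332 in bone controls, and Mki67, a gene of dividing cells, at 3738 CPM against 1009 to 1148. For Fcnb, other libraries departed upward. It made up 3.44% of Fcnb and Mpo counts in Brx07 replicate 1 (interval 3.03 to 3.89). In Brx50 replicate 4 it made up 21.4% (8.30 to 41.0), and in Brx50 replicate 1 all 7 of these counts (59.0 to 100). Prtn3 made up 61.4% of Prtn3 and Elane counts in Brx50 replicate 4 (47.6 to 74.0) and 88.2% in replicate 1 (72.5 to 96.7). Each is 1 library, and the relation of these values to one another was not tested.

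Secondary granule genes, switched on after the primary ones, were also low where the primary ones were low, by about the same factor in some libraries and by another in others. In the bone controls the 6 secondary granule genes summed to 6.09, 11.8 and 8.31 times the CPM of the 6 primary granule genes. This ratio was 9.97 in Brx07 replicate 1, 11.2 and 10.5 in Brx50 replicates 2 and 3, and 5.46 in Brx68 replicate 4, near or within the control range. It was 18.6, 45.0 and 35.4 in Brx68 replicates 5, 3 and 7, 24.6 in Brx50 replicate 4 and 49.4 in Brx07 replicate 2, above every control. In Brx07 replicate 2, Ltf, the lactoferrin gene, stood at 1375 CPM beside 13.9 for Elane. The ratio was 5.47 in Brx68 replicate 1, close to the value of replicate 4. It was 8.45 in Brx50 replicate 1, within the control range although both sums were at 0.23% of the control mean. That value rests on 44 counts over the 6 primary granule genes, 30 of them from Prtn3, with Mpo and Ms4a3 at 0. Brx68 replicates 2 and 6, with 8 and 10 counts over the 6 genes, gave 157 and 19.0. The mature neutrophil genes summed to 141% of their control mean in Brx07 replicate 1, 187% in Brx50 replicate 2, 60.9% in Brx68 replicate 5 and 4.57% in Brx07 replicate 2.

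Collagen and bone matrix genes were present in all bone libraries. The 6 fibroblast and osteoblast genes (Col1a1, Col1a2 and others) summed to 8376 to 16104 CPM in bone controls and 4433 to 52173 in exposed bone. Their sum was 396% of the control mean in Brx50 replicate 1, 254% in Brx68 replicate 3, 178% in Brx68 replicate 6 and 168% in Brx68 replicate 2, where the primary granule sum was under 1%. In other libraries with few granule transcripts it was not raised, at 85.7% in Brx07 replicate 2, 62.9% in Brx50 replicate 4 and 65.6% in Brx68 replicate 7. It was 33.6% to 44.5% in Brx07 replicate 1, Brx50 replicates 2 and 3 and Brx68 replicate 4, where the granule sum was 62.2% or more. None of these 6 genes was at 0 in every library of either bone group, none passed the edgeR threshold, and their part in the low granule sums was not tested.

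**Figure D5:**
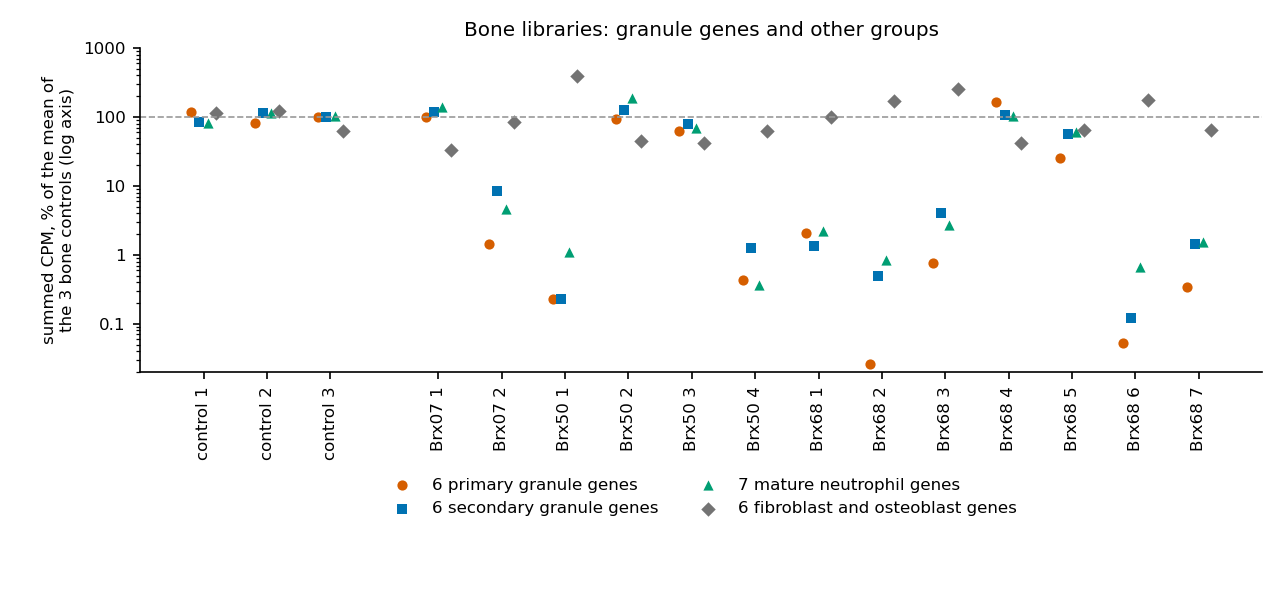
Summed CPM of 6 primary granule, 6 secondary granule, 7 mature neutrophil and 6 fibroblast and osteoblast genes in each bone library, as a percentage of the mean of the 3 bone controls (log axis; dashed line, 100%). Primary granule sums in exposed bone run from 0.0264% to 162%, and fibroblast and osteoblast sums from 33.6% to 396%.

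In bone no gene of the other lists passed the edgeR threshold, as for all genes. limma-voom, which called 12% of all genes lower, called lower 6 of 6 secondary granule, 7 of 7 mature neutrophil, 7 of 10 other azurophil and 6 of 8 transcription factor genes. It also called lower 5 of 7 proliferation, 3 of 3 eosinophil, 3 of 5 mast cell and basophil, 3 of 6 progenitor, 3 of 6 growth factor and receptor, 2 of 5 inhibitor, 4 of 12 paralog and neighbour, 2 of 5 erythroid and 1 of 1 lung epithelial genes, and it called 1 inhibitor and 1 monocyte and macrophage gene higher. It called none of the fibroblast and osteoblast or brain cell genes. The 10 other azurophil granule and early precursor genes had a median log2 difference of -1.07, the 8 transcription factors -1.03 and the 6 growth factor and receptor genes -0.47. The secondary granule list had -1.44 and the mature neutrophil list -1.38. The medians were -0.42 for 7 proliferation genes, -0.16 for 6 monocyte and macrophage genes, -0.05 for 6 haematopoietic progenitor genes and 0.77 for 5 inhibitors of the granule proteases. For marker lists of other cells they were -0.82 (3 of 4 eosinophil genes tested), -0.84 (5 mast cell and basophil genes), 0.69 (5 erythroid genes), 0.44 (fibroblast and osteoblast genes) and 3.14 (4 brain cell genes). The 12 paralogs and chromosomal neighbours tested had a median of 0.58, and the 1 lung epithelial gene tested had -1.025. The median over all genes tested was 0.08.

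Among the genes of the pathway, Cebpe and Gfi1, transcription factors of granulocyte precursors, were low in the same libraries as the 6 genes. Cebpe stood at 57.0 to 71.4 CPM in bone controls, at 88.2 and 1.956 CPM in Brx07 replicates 1 and 2, and at 0 in Brx68 replicate 6. Prss57, the fourth neutrophil serine protease, stood at 27.0 to 39.6 CPM in controls, 33.1 in Brx07 replicate 1 and 0.88 in replicate 2. Runx1, a factor of many blood cells, did not follow, at 126 to 155 CPM in controls and 87.9 to 254 in exposed bone. Cebpa, from the same list of transcription factors, did not follow either. It was above all controls in 6 of 13 exposed bone libraries and below them in 2. Of the other azurophil granule genes, Cd63 was above all controls in 5 and below in 6, and Ctsc above in 6 and below in 6. Serpinb1a, an inhibitor of neutrophil elastase expressed by neutrophils themselves, stood at 209 to 222 CPM in controls and from 9.48 to 259 CPM in exposed bone. The related inhibitor Serpinb6a stood at 55.2 to 60.7 CPM in controls and was as high as 188 CPM, in Brx68 replicate 3. None of these passed the edgeR threshold in bone.

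No difference in these genes was called between the 2 lines with most bone libraries. Elane averaged 363 ± 435 CPM (SD, n = 4) with Brx50 and 255 ± 581 (n = 7) with Brx68, and each line held libraries at 574 CPM or more and libraries near 0. The fitted log2 difference, Brx68 minus Brx50, ran from -0.31 (Prtn3, SE 1.91) to -0.89 (Fcnb, SE 1.58), with edgeR adjusted p of 0.934 to 0.983. For Elane the difference was -0.47 with an approximate 95% half-width of 3.90, from the SE by a normal approximation. The data thus leave room for a large difference in either direction. edgeR called 0 of 19211 genes (0%), with 1344 at an unadjusted p under 0.05 (7%), DESeq2 called 67 (0.296%) and limma-voom called 0. Without Brx50 replicate 2, the sign turned for 5 genes, to 0.22 for Mpo, 0.48 for Elane, 0.57 for Prtn3, 0.62 for Ctsg and 0.87 for Ms4a3. Leaving out single libraries moved the fitted values between -5.20 and 0.87.

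In exposed lung the 6 genes stayed near the background of the lung controls. Mpo ranged from 0.0714 through a median of 0.335 to 2.03 CPM in the 7 exposed libraries, against 0.358 and 0.279 in the controls. Elane ranged from 0.214 through 0.533 to 2.14 CPM, against 1.79 and 0.744. Prtn3 ranged from 1.93 through 3.46 to 9.58 CPM, against 5.56 and 3.16, and overlapped its controls. Ctsg ranged from 0.118 to 0.451 CPM, Fcnb from 0 to 0.236, and Ms4a3 had a single count among the 7 libraries. The highest Mpo, Elane and Prtn3 values were in Brx07 replicate 1, which also had Col1a1 at 9509 CPM against 369 and 450.4 in the controls.

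Mpo, Elane and Prtn3 passed the low count filter in lung, and none was called. Their fitted log2 differences were 0.95 (SE 1.13), -0.77 (SE 0.81) and 0.16 (SE 0.59), with edgeR adjusted p of 1. edgeR called 0 of 17132 genes (0%), with 118 at an unadjusted p under 0.05 (0.689%), DESeq2 called 2 (0.00701%) and limma-voom 1 (0.00584%). Without control replicate 1 the Elane value turned to 0.01, and without Brx07 replicate 1 the Prtn3 value turned to -0.15. None of the 6 separated the groups, as 3.02% of genes did. Lung Brx50 replicate 3 had some neutrophil transcripts well above the controls, but not all of them, and few of the 6 genes. It had Cxcr2 at 493.5 CPM and Lcn2, a secondary granule gene, at 1818 CPM, against 97.5 and 97.6 for Lcn2 in the controls, with Mpo at 0.212 and Elane at 0.423 CPM. In the same library Retnlg, of mature neutrophils, stood at 5.79 CPM against 44.4 and 35.8, and Cd177, of secondary granules, at 9.46 against 137 and 117, while S100a9 stood at 628 CPM. The monocyte gene F13a1 was also high there, at 646 CPM against 128 and 65.8.

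In exposed brain 2 of 3 libraries had each of the 6 genes above both controls, and 1 of these held nearly all of the counts. In Brx50 replicates 1, 2 and 3, Elane stood at 0, 105 and 3.802 CPM, and Mpo at 0, 88.4 and 0.9504. Prtn3 stood at 0, 47.7 and 3.64 CPM, Ctsg at 0, 29.9 and 0.634, Ms4a3 at 0, 14.5 and 1.43, and Fcnb at 0, 1.14 and 0.634. Replicate 2 held 2779 counts over the 6 genes, 10.8% of the bone control mean, replicate 3 held 70 and replicate 1 none, while the brain controls held 10 and 4. A count of 0 in replicate 1 allows up to 0.699 CPM, above the brain control values of all but Prtn3.

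In replicate 2 the genes stood in the same order as in bone controls, with 36.7% Elane, 30.8% Mpo, 16.6% Prtn3, 10.4% Ctsg, 5.04% Ms4a3 and 0.396% Fcnb. Only the Elane share lay within its bone control range. Mpo and Ms4a3 lay above theirs, and Prtn3, Ctsg and Fcnb below. Prtn3 was 31.2% of the counts of Prtn3 and Elane together (interval 28.8 to 33.6), below the 38.3% to 38.8% of bone controls. Secondary granule genes summed to 7.73 times the primary ones, within the range of bone controls, and Ngp, the neutrophilic granule protein gene, stood at 854 CPM against 3.67 and 1.47 in brain controls. Eosinophil genes (4 genes) summed to 50.4 CPM in this library and to at most 0.533 in brain controls, with Epx and Prg3 at 0 in both controls. Fibroblast and osteoblast genes summed to 1188 CPM, against 149 and 189, but to 1260 in replicate 3, where the granule genes were low. Brain cell genes stood at 3373 CPM or more in the 3 exposed libraries. What these cells add to the granule values was not tested.

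Elane and Prtn3 passed the low count filter in brain, with log2 differences of 7.70 (SE 2.87, edgeR adjusted p = 0.334) and 4.38 (SE 2.10, adjusted p = 0.424), so neither was called. The filter left out Mpo, Ctsg, Ms4a3 and Fcnb. In brain, edgeR called 1 of 16734 genes (0.00598%), and 2272 had an unadjusted p under 0.05 (13.6%), among them Elane. DESeq2 called 681 of 15599 genes (4.37%) and limma-voom 845 (5.05%). Of the 6, DESeq2 tested 4 and limma-voom 2, and none of those was called. Pooled counts gave a ratio of exposed to control brain of 354 for Elane (95% exact counting interval 97.9 to 2931) and 32.9 for Prtn3 (17.8 to 69.1), but 1 library supplies almost all of the exposed counts. Without replicate 2 the 6 genes held 70 counts in exposed brain.

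Whether the difference between exposed and control libraries varied by tissue was asked in a fit of all 30 libraries. The log2 difference between the brain effect and the bone effect ran from 5.88 (Prtn3, SE 3.33) to 10.88 (Ctsg, SE 5.18), with edgeR adjusted p of 0.594 to 0.648. Mpo, Elane and Ctsg had an unadjusted p under 0.05, as did 8.34% of the 21233 genes, and 0 genes passed after adjustment (0%). limma-voom called 1638 genes (7.71%), Ms4a3 and Fcnb among them at 9.03 (SE 2.38, limma adjusted p = 0.0218) and 7.03 (SE 1.69, limma adjusted p = 0.0136). DESeq2 tested 9978 genes, 5 of the 6 among them, and called 96 (0.962%) but none of those 5. The lung effect minus the bone effect ran from -1.23 (Ms4a3, SE 3.02) to 2.40 (Mpo, SE 3.37), with an edgeR adjusted p of 1.000 for each, and edgeR called 0 genes (0%), with 237 at an unadjusted p under 0.05 (1.12%). DESeq2 called 10 (0.0303%) and limma-voom 317 (1.49%), with none of the 6. Both contrasts use the same bone libraries, so they are not independent.

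Some chromosomal neighbours and paralogs of the 6 genes were at other levels in the same libraries. Lpo, lactoperoxidase, whose gene lies 2015 bases from Mpo, had 0 counts in the bone controls and at most 1.55 CPM in exposed bone. Cfd, the serine protease gene of complement factor D, begins 2638 bases beyond Elane and stood at 0.377 to 0.847 CPM in bone controls, against 784 to 1174 for Elane. Its highest value, 114 CPM, was in Brx68 replicate 1, where Elane stood at 26.0. Med16, a Mediator subunit gene beyond Cfd, stood at 45.9 to 46.2 CPM in controls and 26.4 to 49.1 in exposed bone, where Elane reached 0. Genes beyond Med16 varied more. R3hdm4 stood at 139 to 156 CPM in controls and from 27.5 through a median of 64.2 to 161 in exposed bone. Arid3a stood at 161 to 174 CPM in controls and from 12.9 through 27.1 to 232 in exposed bone. On chromosome 14, Mcpt8, a basophil protease gene 14608 bases from Ctsg, stood at 33.8, 22.4 and 47.2 CPM in controls. Mcpt8 was also low in the exposed libraries with little Ctsg, at 0.685 CPM in Brx07 replicate 2, and at 1.31 CPM in Brx68 replicate 5, where Ctsg stood at 113.

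The 8 genes whose log2(CPM + 1) was most like the mean of the 6 over the 30 libraries, out of 15112 named genes with a mean of at least 1 CPM, were Nkg7 (r = 0.986), Camp (0.977), Itgb2l (0.975), Adgrg7 (0.970), Chst13 (0.970), Cebpe (0.969), Prg2 (0.969) and Adpgk (0.969). Nkg7 stood at 40.2 to 63.8 CPM in bone controls, from 0 to 82.9 in exposed bone and at most 0.372 in lung. Camp encodes the cathelicidin of secondary granules and Prg2 the major basic protein of eosinophils. Within the 13 exposed bone libraries the 8 were Trem3 (r = 0.993), Il18rap (0.991), Mcemp1 (0.989), Nkg7 (0.986), Cebpe (0.986), Gpr84 (0.985), Fpr2 (0.983) and Tbc1d10c (0.982). Nkg7 and Cebpe were in both sets. Trem3 stood at 83.1 to 99.3 CPM in bone controls and at 23.8 and 25.5 in lung controls, where the 6 genes were near 0. These correlations rest on the split between high and low libraries and carry no test.

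The label codes allow some libraries to be read side by side across tissues, although what a code stands for was not given in the sources used here. Code 83.2 with Brx50 occurs for bone, brain and lung, and the 6-gene sum there was 93.1%, 0.416% and 0.167% of the bone control mean. Code 84.2 occurs for Brx50 bone (62.2%), Brx50 lung (0.157%) and Brx68 bone (0.0531%), so the same code stands beside different lines. Code 48.1 occurs for Brx50 brain replicate 1, with 0 counts over the 6 genes, and Brx50 lung replicate 2, with 58. Code 99.2 occurs for Brx68 bone (0.341%) and Brx68 lung (0.191%). The low sums rest largely on Prtn3 in some of these libraries. Prtn3 made up 65.5% to 80% of the 6-gene counts in these lung libraries. It made up all 10 counts in Brx68 bone with code 84.2.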

How the data were processed

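The authors deposited raw counts per gene, 1 column per library, as whole numbers, used here unchanged. The submitters' processing notes name the tools STAR (2.5.2b) and HTSeq and the builds mm10, GRCm38.p5, hg19 and GRCh37, with no role for any. How strand was handled and how human reads were kept apart was not given in the sources used here; human reads counted on mouse genes would alter levels. Symbols matched 42462 of 43346 gene IDs in a gene name table. Positions and exon lengths came from GENCODE M21 on GRCm38 and promoters from RefSeq on GRCm38.p6.

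CPM used unscaled totals. Counts were tested with edgeR 4.0.16 (R 4.3.3): two-sided quasi-likelihood F-test, robust dispersion, TMM, filterByExpr, Benjamini-Hochberg adjustment, threshold 0.05. Each tissue was fitted alone, the lines within all bone libraries, tumour-free tissues over 7 controls, and differences between tissues over 30 libraries. The procedure was tested on simulated data. Alternatives were RLE scaling, no filter, DESeq2 1.42.0, limma-voom 3.58.1 with quality weights, leaving out each library and a replicate block. Leaving out libraries with under 17000 genes was added after seeing the data.

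The members, the 17 lists and the rule for named genes (from each list, up to 2 genes past the threshold by p, otherwise the 2 highest in CPM; the 8 most correlated genes) were chosen with earlier results of these data known. Genes the text adds outside that rule, such as Gfi1, Prss57, Nkg7, Cxcr2 and Med16, were chosen after their values were seen. Replicates differed by more than sampling noise (smallest chi-square per degree of freedom 9.64).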

Additional observations from a re-analysis of the deposited data

Results flagged for a closer look

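In a group of 4 to 10 libraries, a library was singled out where its gap to the next exceeded Dixon's 95% critical value. Of 18 groups of values tested, 9 were singled out, while chance flags about 1 group in 20.

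Brx68 bone replicate 4 stood far above the other 6 Brx68 bone libraries for all 6 genes. It had Elane at 1563 CPM with the next library at 185, Mpo at 1051 with the next at 137, and Prtn3 at 1015 with the next at 201. Ctsg was at 510.3 CPM with the next at 113, Ms4a3 at 162 with the next at 42.5, and Fcnb at 28.0 with the next at 0.605. The next library was replicate 5 for each gene. The 6 genes move together, so these are 1 pattern in 1 library and not 6.

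Among the 7 exposed lung libraries, Brx07 replicate 1 stood apart for Mpo, at 2.03 CPM with the next at 0.871, and for Elane, at 2.14 with the next at 0.943, which are 18 and 19 counts. Ms4a3 stood apart in Brx50 replicate 2, at 0.0871 CPM, which is 1 count among 7 libraries. The others were at 0, so any count would have been singled out.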

How the results depend on the processing

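Direction and call of the 6 genes held between tumour-free tissues under every alternative run, with 6 of 6 genes higher in bone, 6477 to 8506 genes called against lung and 12678 to 14405 against brain when single libraries were left out. Same-numbered controls of different tissues showed little shared deviation (correlations of deviations from -0.06 to 0.03). Lung and brain have 2 controls each, whose deviations mirror one another, so this check cannot exclude pairing. The brain controls are numbered 1 and 2 in their titles, used here, but 2 and 3 in the column names. By the latter numbers, bone and brain gave 0.06 and -0.002, also small. With a replicate block by title numbers, 7377 and 13524 genes were called, again with all 6.

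In bone, genes called rose from 0 to 17 with DESeq2 and to 2844 with limma-voom, which also called 6 of 6 genes, and were 0 to 2 without single libraries (2 without Brx68 replicate 2). In lung they were 2 with DESeq2 and 1 with limma-voom. In brain they went from 1 to 273 without the filter, 681 with DESeq2, 845 with limma-voom, and 0 to 69 without single libraries, the 69 without Brx50 replicate 1 and 0 without Brx50 replicate 3 or either control. For Brx68 minus Brx50, DESeq2 called 67. Lung minus bone effects gave 10 (DESeq2) and 317 (limma-voom). Brain minus bone effects gave 96 (DESeq2), 1638 (limma-voom, with 2 of the 6), 4 without the 3 libraries under 17000 genes detected, and 0 to 22 without single libraries (22 without brain Brx50 replicate 3, 3 without brain Brx50 replicate 1 and 1 without lung Brx50 replicate 3). The cause was not tested.

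Signs turned in values that were never called. In lung, Elane was 0.012 without control replicate 1, the top of its range without single libraries (from -1.345), and Prtn3 was -0.11 with limma-voom and -0.15 without Brx07 replicate 1, with a range from -0.22 (without control replicate 2) to 0.63. For Brx68 minus Brx50, values without Brx50 replicate 2 were 0.22 (Mpo), 0.48 (Elane), 0.57 (Prtn3), 0.62 (Ctsg) and 0.87 (Ms4a3), Prtn3 was 0.02 without Brx50 replicate 3, and Elane, Prtn3 and Ctsg were 0.0030, 0.18 and 0.013 without the libraries under 17000 genes. The lowest values came without Brx68 replicate 4: -3.32 (Mpo), -3.31 (Elane), -2.65 (Prtn3), -2.64 (Ctsg) and -2.56 (Ms4a3). Ms4a3 in lung minus bone effects was 4.20 with limma-voom and 2.37 without lung control replicate 1, the top of a range from -2.27. Few counts limit these values in lung and brain, where most members have under 10 counts in most libraries.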

Other observations

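Csf3 encodes G-CSF, the growth factor of neutrophil precursors, and Csf3r its receptor. Csf3 stood at 5.74 to 10.8 CPM in bone controls and reached 113 CPM in Brx68 replicate 2 and 59.0 in Brx50 replicate 1, where Elane stood at 0.0880 and 0.547 CPM. It stood at 37.1 to 39.1 CPM in Brx50 replicate 4 and Brx68 replicates 1 and 3, which were also low in Elane. It stood at 4.53 to 6.32 CPM in Brx07 replicate 2 and Brx68 replicates 6 and 7, also low in Elane, and at 2.00 to 14.6 CPM in Brx07 replicate 1, Brx50 replicates 2 and 3 and Brx68 replicate 4, where Elane was at 574 CPM or more. Csf3r stood at 491 to 551 CPM in bone controls, 566 in Brx07 replicate 1 and 64.0 in replicate 2. Serpina3n, a serine protease inhibitor, stood at 10.8 to 16.2 CPM in bone controls and 6.51 to 294 in exposed bone, highest in Brx68 replicate 6, where Mpo, Elane and Ctsg had 0 counts. None of these 3 genes passed the edgeR threshold in bone, and they were picked after their values were seen.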
